A study of Mus musculus with 4 samples.

Results

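The 9 genes of the complement system examined here were the early components C1ra, C4b, C2 and C3, the alternative pathway genes Cfb and Cfp, the terminal components C6 and C7, and the regulator Serping1. They were listed by symbol, and each was read from its probe set with exactly 1 gene symbol in the platform annotation. Of the 9 genes, 8 had such a probe set, 1 each, among the 22180 genes with one. C3, the central component, had none and was not analysed here. C7 was put on the list because of its sex difference in these arrays, so its values are a description without a test.

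The arrays compared untreated wild-type C57Bl/6 mice, an inbred laboratory strain, at 4 months of age: 2 arrays from males and 2 from females. RNA came from whole Achilles and plantaris tendons, although the labels give the cell type as tenocytes. All values are log2 RMA values as deposited, where RMA is a summary of probe brightness after background correction and normalization. Differences are female minus male on the log2 scale. Whether each array came from its own animal is not stated in the labels, so p-values reflect the spread among these 4 samples alone, which may be technical. In whole tissue, fewer cells of a type and less RNA per cell cannot be told apart.

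Complement is a cascade of plasma and tissue proteins that marks surfaces for clearance. The classical pathway begins when C1q binds a target and its proteases C1r and C1s cut C4 and C2, the alternative pathway uses factor B and properdin, and both form enzymes that cut C3. The terminal components C5 to C9 then assemble the membrane attack complex, into which C7 enters after C6. Most circulating complement is made in the liver, but fibroblasts, adipocytes and macrophages also express parts of the cascade.

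C7 and C6 are shown with the bases before their gene starts, since these genes encode components that act in succession, lie near each other on chromosome 15 and had unlike values. The sequences are from RefSeq on GRCm38.p6, which gave a promoter for 5 of the 9 genes. Each holds the 250 bases before the start on the gene's own strand, at chr15:5063774-5064023 (minus strand) for C7 and chr15:4726960-4727209 (plus strand) for C6. Capitals mark a match to TTCNNNGAA, the palindromic core bound by STAT factors.
C7: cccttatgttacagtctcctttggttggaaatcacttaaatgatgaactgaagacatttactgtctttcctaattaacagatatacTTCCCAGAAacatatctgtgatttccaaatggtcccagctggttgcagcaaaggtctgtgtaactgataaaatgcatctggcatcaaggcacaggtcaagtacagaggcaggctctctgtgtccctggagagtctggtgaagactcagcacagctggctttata
C6: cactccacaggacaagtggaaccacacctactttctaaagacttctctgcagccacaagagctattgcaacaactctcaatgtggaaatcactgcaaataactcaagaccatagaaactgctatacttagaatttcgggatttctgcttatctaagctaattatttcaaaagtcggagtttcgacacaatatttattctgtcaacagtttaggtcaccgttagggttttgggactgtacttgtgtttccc
The C7 window held 1 match, TTCCCAGAA, whose first base lies at position -164, counting the base before the start as -1. The C6 window held none, nor did those of C1ra, Cfp and C3. The same motif was found in 7.02% of the 32851 promoter windows of this length. Neither TATAAA on the gene strand (7.59% of windows) nor AGAACA, a steroid receptor half-site, on either strand (16.1%) was found in the windows of these 5 genes. TTCNNNGAA reads the same on both strands, and its match in the C7 window overlapped no other motif searched. A match describes letters alone, not a bound site.

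Among the terminal components, C7 (probe set 17315686) was at 6.17 in male 1, 6.74 in male 2, 3.74 in female 1 and 3.09 in female 2. Both male arrays were high and both female arrays low, with a gap of 2.43 between the lower male and the higher female array. The male mean was 6.46 ± 0.40 (SD, n = 2) and the female mean 3.42 ± 0.46 (SD, n = 2). The difference was -3.04 (SE 0.32), a measured signal 8.22-fold lower in females, and it is the value for which C7 was chosen. Each SE in this text comes from the limma fit, which draws the spread of a gene toward that of the other genes. Such an SE is smaller than the SDs alone would give for variable genes, C7 among them, and larger for steady genes. The SE of C7 is a description and no test of its difference. Leaving out each array in turn gave a C7 difference between -3.36 and -2.71. With a gap of 2.43 between the groups it had to stay negative, so this range is no separate support.

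C6 (probe set 17309832), whose protein binds C5b before C7 joins, was at 2.38 and 2.30 in males 1 and 2, and at 2.00 and 2.29 in females 1 and 2. All 4 values lay close to the array medians of 2.27 to 2.30, and female 1 was below its median. The medians serve here as a rough mark of background, and no detection call was made. Y-linked Eif2s3y, for instance, was at 2.86 in female 1, above the median of that array. In the other direction, a value below the medians does not show that RNA was absent. The C6 difference was -0.19 (SE 0.17, 95% interval -0.65 to 0.26), and it did not pass the test (limma adjusted p = 0.969). It was -0.05 without female 1 and -0.33 without female 2. The groups were separated by only 0.015.

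The remaining terminal genes were Hc, which encodes C5, C8a, C8b and C8g, the chains of C8, and C9, which forms the ring of the pore. None of these 5 was above the array medians on all 4 arrays, and 3 were above them on no array. Hc was between 1.69 and 1.81 and C9 between 1.69 and 1.84 over the arrays. Their differences were 0.03 (SE 0.15) for Hc and -0.01 (SE 0.15) for C9, and the widest of the 5 was C8a at -0.08 (SE 0.19). Among the terminal genes, signal above the medians on all 4 arrays was therefore measured for C7 alone.

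**Figure D1:**
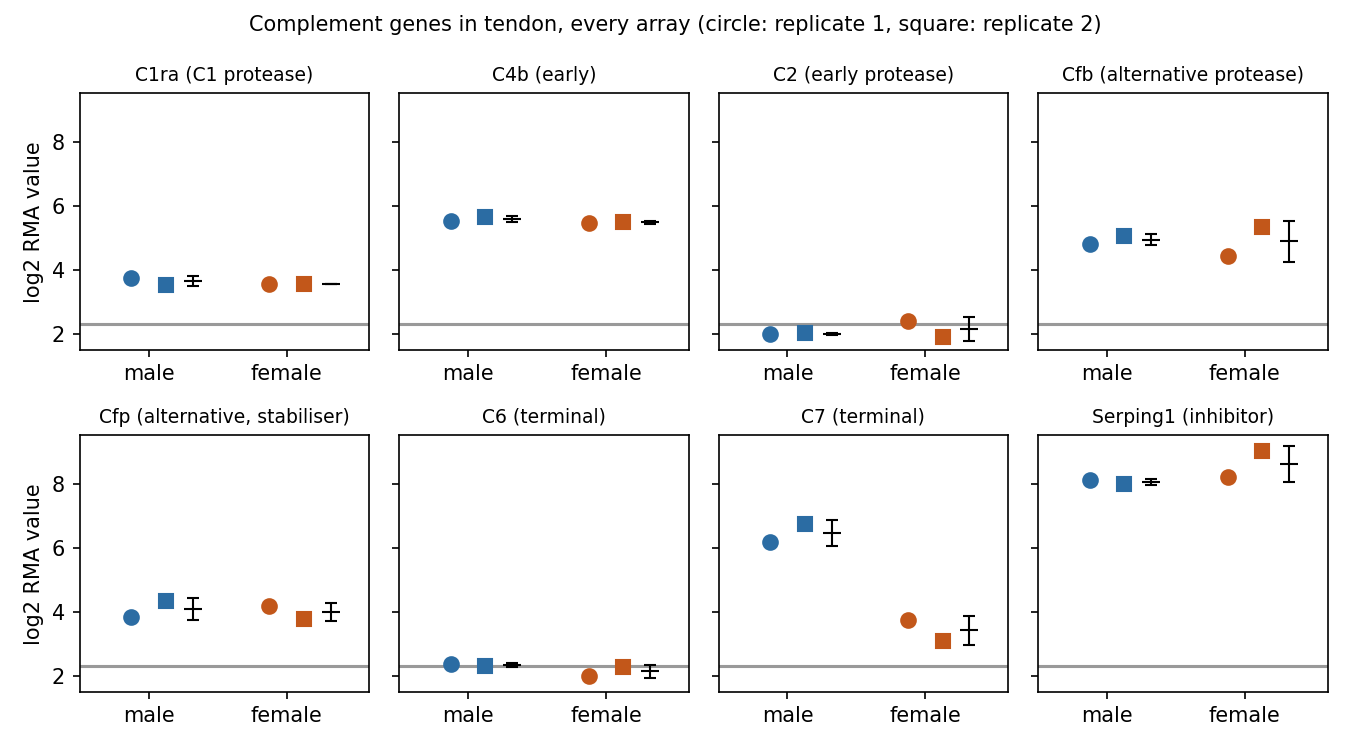
Log2 RMA value (vertical axis) of each measured complement gene on every array, with males in blue and females in orange, circles for replicate 1 and squares for replicate 2. Black bars are the mean ± SD of 2 arrays, the grey band is the range of the array medians (2.27 to 2.30), and levels are not compared between panels because each panel is a different probe set. C7 is above 6 in males and below 4 in females, and C2 and C6 lie near the grey band.

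Of the early components, C1ra (probe set 17462872), which encodes the C1r protease, was at 3.75 and 3.54 in males 1 and 2, and at 3.57 and 3.55 in females 1 and 2. The sexes overlapped, and the difference was -0.08 (SE 0.16, 95% interval -0.50 to 0.33, limma adjusted p = 0.983). Without male 1 it was 0.02. C4b (probe set 17343918), whose product is deposited on target surfaces, was at 5.51 and 5.65 in males 1 and 2, and at 5.45 and 5.50 in females 1 and 2. Its difference of -0.10 (SE 0.15, 95% interval -0.50 to 0.29) did not pass the test (limma adjusted p = 0.975), and the groups were separated by only 0.011. It was -0.17 without male 1 and -0.035 without male 2. The whole range of C4b over the 4 arrays was 0.195, the smallest among the 8 genes.

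C2 (probe set 17344086), the protease partner of C4b, was at 1.99 and 2.02 in males 1 and 2, and at 2.41 and 1.90 in females 1 and 2. Only female 1 was above its array median. The difference of 0.15 (SE 0.22, 95% interval -0.44 to 0.74, limma adjusted p = 0.977) turned to -0.10 without female 1. C1ra and C4b each have a closely related copy in the mouse, C1rb and C4a, so probes of one may also read the other. C1rb was at 1.72 to 2.47 and C4a at 1.32 to 2.14 over the arrays.

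Of the alternative pathway genes, Cfb (probe set 17344064), which encodes factor B and lies beside C2 on chromosome 17, was at 4.82 and 5.05 in males 1 and 2, and at 4.42 and 5.35 in females 1 and 2. The female arrays held both the lowest and the highest value, and the female SD of 0.65 was above the male SD of 0.17. The difference was -0.05 (SE 0.35, 95% interval -0.99 to 0.88, limma adjusted p = 0.998). It was 0.41 without female 1 and 0.06 without male 2. Cfp (probe set 17540521), the X-linked gene of properdin, which stabilises the alternative enzyme, was at 3.85 and 4.34 in males 1 and 2, and at 4.18 and 3.79 in females 1 and 2. The sexes overlapped, with a difference of -0.11 (SE 0.25, 95% interval -0.79 to 0.57, limma adjusted p = 0.984), which was 0.14 without male 2 and 0.09 without female 2. Cfd, the gene of factor D, had no probe set with a single symbol and was not analysed here.

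The regulator Serping1 (probe set 17387517) encodes C1 inhibitor, which inactivates the C1r and C1s proteases. It was at 8.13 and 7.98 in males 1 and 2, and at 8.21 and 9.01 in females 1 and 2. Female 2 stood above the other arrays, while female 1 exceeded the higher male by only 0.079. The difference was 0.56 (SE 0.31, 95% interval -0.27 to 1.39) and did not pass the test (limma adjusted p = 0.969). Without female 2 it was 0.15, and without female 1 it was 0.96.

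Of the 7 measured genes other than C7, 5 were lower in females, where 51.2% of all probe sets were lower, and their median difference was -0.08 beside -0.0070 over all 22180 genes. This median was 0.064 without male 2 and -0.155 without male 1. Limma called 0 of 23521 probe sets (0%) at an adjusted p under 0.05, and thus none of these genes. Xist, used below to check the array labels, was not called either (limma adjusted p = 0.772). An unadjusted p under 0.05 was found for 1056 probe sets (4.49%) and for 0 of the 7 genes other than C7. The sexes did not overlap, with lower values in females, for 2 of these 7 genes, C4b and C6, where 17.5% of all probe sets met this condition. They did not overlap with higher values in females for Serping1 alone, where 15.8% did. The 95% intervals of the 7 genes other than C7 all included 0. They were widest for Cfb, reaching down to -0.99, and for Serping1, reaching up to 1.39, and for C4b and C1ra they stayed between -0.50 and 0.33.

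**Figure D2:**
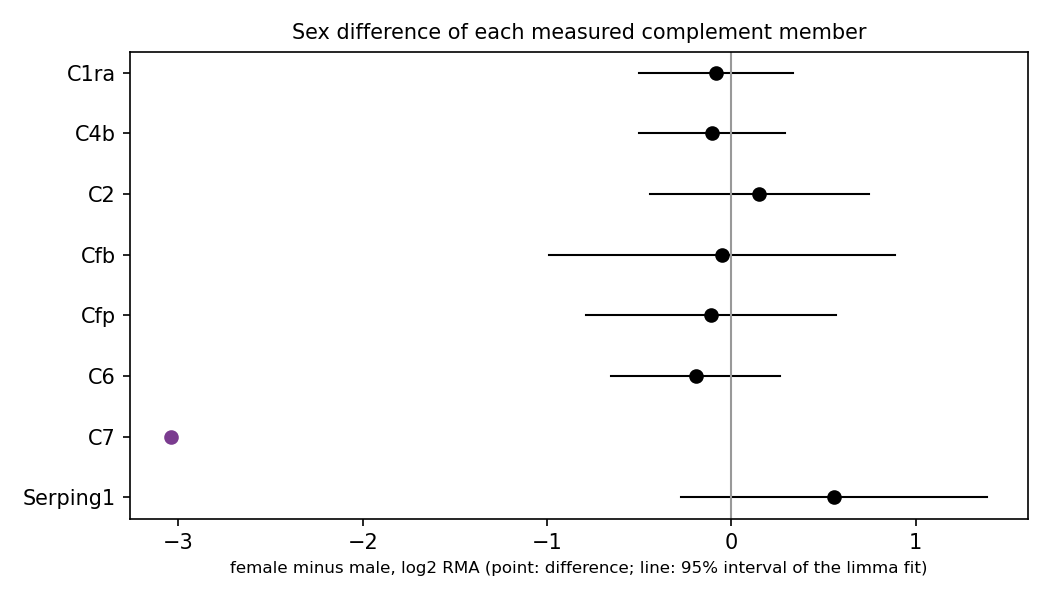
Difference between the sexes (female minus male, log2 RMA, horizontal axis) for each measured complement gene, with points for the difference and lines for the 95% interval of the limma fit. C7, in purple, was chosen for its difference of -3.04 and is drawn without an interval, and the intervals of the other 7 genes include 0.

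The genes of most similar pattern to C7 were found by the root mean square distance between profiles over the 4 arrays, each centred on its own mean. The search left out predicted genes (Gm, LOC and Rik names), microRNAs, small nucleolar RNAs, and olfactory and vomeronasal receptor genes. The ranks below hold among the genes that remained. The nearest was Eif2s3y, a Y-linked translation factor gene, at a distance of 0.354. It was at 4.46 and 4.96 in males 1 and 2, and at 2.86 and 1.65 in females 1 and 2. The second was Cish, an inhibitor of cytokine signalling through STAT5, at 0.429, with 5.13 and 5.90 in males and 3.53 and 3.09 in females. Rbm12b2 (0.689), the amino acid transporter gene Slc38a4 (0.737) and the surface glycoprotein gene Cd24a (0.764) followed. In these 5 genes, as in C7, both male arrays were above both female arrays. The search picked them for this pattern, so it is no further evidence of it. The 250 bases before the start of Cish held no match to TTCNNNGAA.

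**Figure D3:**
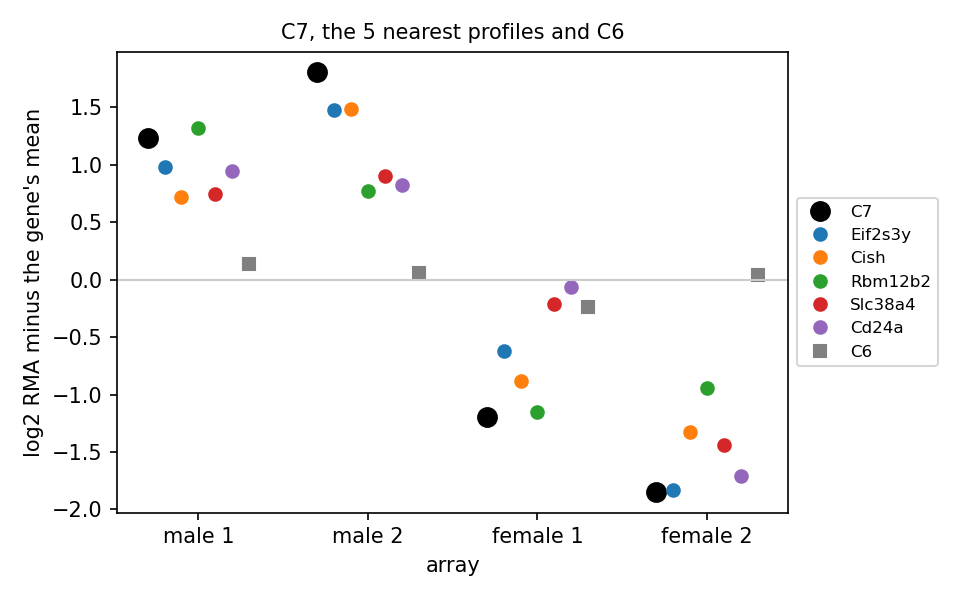
Log2 RMA value minus the gene's mean over the 4 arrays (vertical axis) for C7 (large black points), the 5 genes of nearest profile and C6 (grey squares), by array. C7 lies at 1.24 and 1.80 in the males and at -1.19 and -1.85 in the females, while C6 stays between -0.24 and 0.14.

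The nearest protein-coding neighbours of C6 and C7 on chromosome 15, chosen after the values were seen, did not have a comparable difference. Mroh2b, which lies between C6 and C7, was at 1.57 to 1.78, below every array median. Card6 and Rpl37, on the far side of C7, differed by -0.12 (SE 0.15) and 0.19 (SE 0.14), and both also lay below the medians on all arrays. Plcxd3 and Oxct1, on the far side of C6, differed by -0.20 (SE 0.22) and 0.61 (SE 0.38). Of these 5 neighbours, signal above the medians was present for Oxct1 alone, so the comparison says little about the others.

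Other complement genes were compared by role. Of 47 listed genes 43 were measured, with 28 higher and 15 lower in females and a median difference of 0.08, which was 0.14 without female 1. Over all probe sets 51.2% were lower in females. Limma called 0 of the 43, and 3 had an unadjusted p under 0.05, beside 4.49% of all probe sets. Of the 43, 14 were above the medians on all arrays and 14 on none, beside 10558 and 7587 of all 22180 genes.

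The C1q chain genes start the classical pathway and are typically expressed by macrophages. C1qa was at 2.76 and 3.17 in males 1 and 2, and at 3.34 and 4.76 in females 1 and 2, a difference of 1.09 (SE 0.52). C1qb was at 4.03 and 4.39 in males and at 4.78 and 5.74 in females, a difference of 1.05 (SE 0.37, limma unadjusted p = 0.0425, adjusted p = 0.969). C1qc was at 3.55 and 3.70 in males and at 3.56 and 4.44 in females, a difference of 0.38 (SE 0.33). Female 2 was the highest array for each chain, and the sexes overlapped for C1qc. Of the 7 genes of the C1 complex and classical start, 4 were higher in females, with a median difference of 0.38. In this list, 3 genes were above the array medians on all arrays and 2 on none.

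Complement receptors were higher in females in 8 of 9 genes, with a median difference of 0.64, and 0 of the 9 passed the test. Of the 9, 4 were above the array medians on all arrays and 1 on none. Vsig4, a macrophage receptor for C3 fragments, was at 1.94 and 3.38 in males 1 and 2, and at 3.32 and 5.23 in females 1 and 2, a difference of 1.62 (SE 0.82). Itgb2, the shared chain of complement receptors 3 and 4, was at 2.92 and 3.01 in males and at 3.48 and 4.55 in females, a difference of 1.05 (SE 0.39, limma unadjusted p = 0.0487, adjusted p = 0.969). Female 2 was the highest array for both genes. C3ar1, the receptor of C3a, differed by 0.75 (SE 0.30), Cd93, a membrane protein first described as a C1q receptor, by 0.64 (SE 0.23, limma unadjusted p = 0.0468, adjusted p = 0.969), and C5ar1, a receptor of C5a, by 0.03 (SE 0.33). The exception was C5ar2, the other C5a receptor, at -0.30 (SE 0.26).

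Macrophage markers were, like several of these genes, highest on average in female 2. Of 13 measured markers, 10 were higher in females and 10 were above the medians on all arrays, and their mean level was 4.21 and 4.03 in males 1 and 2, and 4.04 and 4.80 in females 1 and 2. Members of the list differed: Cd68 was at 6.78 in female 2 and between 4.62 and 4.97 on the other arrays, whereas Aif1 was at 2.69 in female 2 and between 2.82 and 3.71 on the others. Cd14 differed by -0.02 (SE 0.14) and Fcgr1 by -0.08 (SE 0.29). Without female 2 the macrophage count was 4 of 13 with a median difference of -0.14. The receptor median was then 0.26, with 6 of 9 genes higher, and that of the C1 genes 0.33, with 4 of 7 higher. Without female 1 the macrophage median was 0.70 and that of the receptors 0.92. The part of macrophage content in these differences was not tested.

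**Figure D4:**
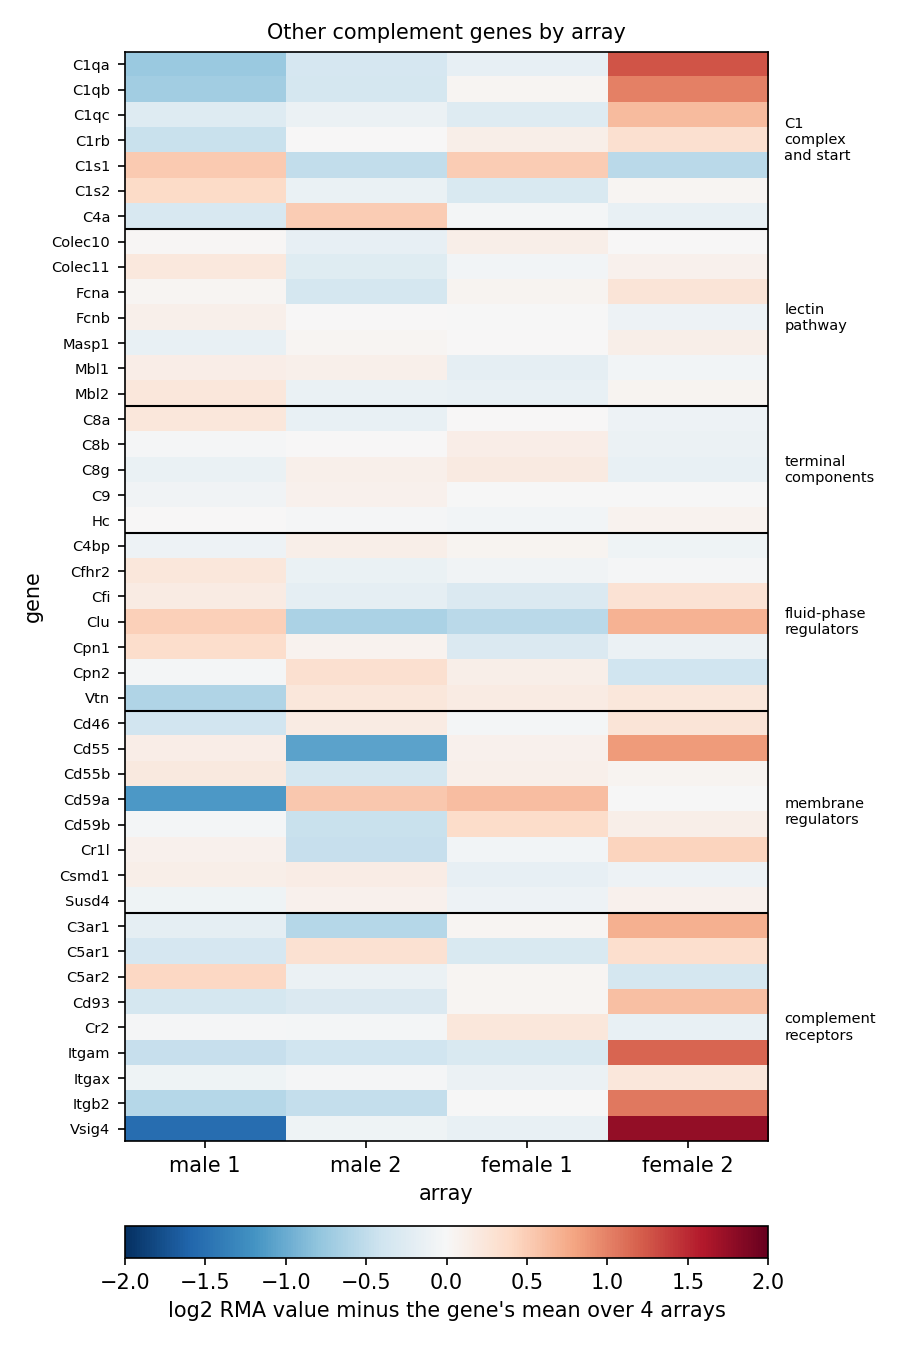
Log2 RMA value minus the gene's mean over the 4 arrays (colour) for the 43 other complement genes (rows, grouped by role) on each array (columns). Red cells in the female 2 column mark C1qa, C1qb, Itgam, Itgb2 and Vsig4, while the lectin pathway and terminal component rows are pale.

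Membrane regulators shield host cells from complement. They were higher in females in 6 of 8 genes, with a median difference of 0.30, and 0 passed the test. Of the 8, 3 were above the array medians on all arrays and 3 on none. Cd55, which speeds the decay of the C3-cutting enzymes, was at 5.48 and 4.27 in males 1 and 2, and at 5.42 and 6.18 in females 1 and 2. The sexes overlapped, with a difference of 0.92 (SE 0.50). Cd59a, which blocks the final assembly of the pore, was at 4.28 and 5.96 in males and at 6.03 and 5.42 in females, a difference of 0.61 (SE 0.62), with male 1 alone low. The membrane regulator median was 0.15 without female 2, 0.19 without male 1, where 4 of 8 were higher, and 0.195 without male 2.

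Fluid-phase regulators had a median difference of -0.02, with 3 of 7 higher in females. Of these 7, 2 were above the array medians on all arrays and 2 on none. The widest was Cpn1, a subunit of carboxypeptidase N, at -0.41 (SE 0.18), with a female mean of 1.81 below the array medians. The median over the lectin pathway was 0.03, 4 of 7 genes being higher, and the widest was Fcna, which encodes ficolin A, at 0.32 (SE 0.20). Of the lectin pathway genes, 2 were above the medians on all arrays and 3 on none. Fcna itself lay near the medians, between 1.935 and 2.54.

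The labelled tissue and other possible sources were checked by markers. Of 10 tendon markers, 9 were above the medians on all arrays, as were 11 of 11 measured markers of loose connective tissue fibroblasts, 10 of 11 adipocyte markers and 10 of 10 skeletal muscle genes. Over all 22180 genes, 10558 were above the medians on all arrays. Hepatocyte markers, whose cells are the main source of plasma complement, were above the medians on all arrays for 1 of 9 genes, and albumin (Alb) was between 2.01 and 2.54. Neutrophil markers were above them on all arrays for 0 of 10 genes. The array labels were checked with Xist, whose male mean was 2.22 ± 0.34 (SD, n = 2) and female mean 7.69 ± 0.49 (SD, n = 2). Its difference of 5.47 (SE 0.32) was not called either (limma adjusted p = 0.772). A gene not called here may therefore still differ between the sexes. Y-linked Eif2s3y, Kdm5d and Uty differed by -2.45 (SE 0.46), -0.76 (SE 0.26) and -0.61 (SE 0.20). In male 1, Kdm5d (2.26) and Uty (2.22) were below the array median of 2.30, so both are weak checks.

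The mean level of the fibroblast markers was 6.64 and 5.99 in males 1 and 2, and 6.22 and 6.92 in females 1 and 2, and that of the tendon markers 6.41 and 6.08 in males, and 5.93 and 6.71 in females. Both were highest in female 2. Adipocyte markers were at 4.69 and 5.28 in males and at 5.60 and 5.80 in females, with 10 of 11 higher in females. Their differences were uneven, from 1.59 (SE 0.28) for Plin4 to -0.02 (SE 0.23) for Plin1. Skeletal muscle markers were at 9.53 and 9.60 in males and at 9.72 and 8.78 in females, with the lowest mean in female 2. Members differed widely. Myh4 was at 7.35, Actn3 at 6.68 and Pvalb at 7.17 in female 2, each well below the other arrays. Acta1, Ckm, Mb and Tnnt3 were also lowest in female 2, by smaller margins. Myh1, Myh2 and Myh7 were higher in female 2 than in both males. Endothelial markers, above the medians on all arrays for 8 of 8 genes, were at 3.87 and 4.50 in males and at 4.28 and 4.55 in females, with 5 of 8 higher in females. Among them Cldn5, a tight junction gene, was lower in both females (difference -0.87, SE 0.30). Emcn, a vessel sialoglycoprotein gene, differed by 1.45 (SE 0.82), with male 1 alone low at 2.315 and the other arrays between 4.70 and 5.12. The part of these tissues in the C7 difference was not tested.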

How the data were processed

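The authors deposited log2 expression values, with a column for each array of a Mouse Gene ST 2.1 strip. Oligo and RMA are named in the submitters' processing notes; their versions, the summary level and the annotation build are not given in the sources used here. That the scale is log2 follows from the range of 0.517 to 11.933 and from RMA. No further normalization was applied.

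Of 41345 rows, 23521 had exactly 1 gene symbol in GEO's platform annotation, covering 22180 genes. A gene with several probe sets was read from the one of highest mean. RefSeq (GRCm38.p6) supplied names, gene order and promoters.

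Sex was the only term of a linear model fitted by limma 3.58.1 under R 4.3.3, using lmFit and eBayes. SEs and intervals are the moderated values of this fit, so they do not follow from the SDs printed for a gene. A run on simulated data beforehand checked the size and sign of added differences, and set no bar for the share of them called. P-values were Benjamini-Hochberg adjusted over 23521 probe sets, with a threshold of 0.05. With 2 arrays against 2 an exact permutation test cannot go below p = 0.333. The number of arrays limits the precision (median SE 0.187).

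The members and lists were chosen with earlier results of these data known. All 9 members were named. From the other complement lists, genes with an unadjusted p under 0.05, the widest difference per list, and the C1q chains, Cfd, Hc, C9, C5ar1, C3ar1, Cd55 and Cd59a were named; 1 more gene of that rule is not reported here. Motifs, marker examples and neighbouring genes were chosen after values were seen. Same-numbered arrays did not deviate together (correlation of deviations -0.064), so replicate numbers were not used as pairs. Figures were drawn with matplotlib 3.10.9.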

Additional observations from a re-analysis of the deposited data

How the results depend on the processing

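Limma called 0 probe sets under each alternative that kept all 4 arrays. At an unadjusted p under 0.05, the counts ran from 472 of 11760 probe sets (above the median level) to 1870 of 41345 (all rows). The replicate block gave 981 of 23521. In all, 14 alternatives were run. They covered the rows tested (all rows, probe sets above the median level, 1 probe set or the mean per gene), the scaling (centring on array medians, a second quantile normalization), the fit (trended and robust prior, array weights, replicate block), an adjusted p under 0.1, and leaving out each array, which assumes that the array left alone varies like those of the other sex. The C7 difference was -3.08 to -3.01 under the alternatives that kept all 4 arrays, and -3.36 to -2.71 when 1 was left out. These ranges come from the values for which C7 was chosen and are no separate support for it. None of the 75 recomputed differences of the other 7 members was called (lowest limma adjusted p = 0.743), and 6 turned in sign, each with 1 array left out: the range was -0.19 to 0.02 for C1ra, -0.51 to 0.41 for Cfb, -0.35 to 0.14 for Cfp and -0.10 to 0.41 for C2. C6 (-0.33 to -0.05), C4b (-0.17 to -0.035) and Serping1 (0.15 to 0.96) kept their sign.

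With 1 array left out, the median difference ranged from -0.162 to 0.015 over the 8 measured members, from -0.155 to 0.064 over the 7 other than C7, and from 0.058 to 0.14 over the other complement genes. Of the 8 measured members, 4 to 6 were lower in females, where 51.2% of all probe sets were lower with all arrays. This count includes C7, which was chosen for its difference. Among probe sets above the median level, 17 of the 43 other complement genes remained and their median was 0.61; the alternative's smaller gene set gives this change, and C2 and C6 have no value there. Leaving out arrays for the median over 7 members and for the role and marker lists was added after seeing the data. No member has a second probe set, so the mean per gene left the members' differences as they were and a comparison between probe sets of a member gave no value. Replicate numbers showed no pairing, and the block changed no call. C2 and C6 lie near the array medians, the rough mark of background used here, which limits any difference there.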
